A study of Homo sapiens with 4 samples.

Results

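A set of 442 pairs of N4-acetylcytidine (ac4C) peaks was strongly enriched both in control and in NAT10-depleted FaDu cells. Each pair joins a peak of the control list and a peak of the knockdown list that carry the same gene identifier, lie on the same strand and share at least 1 base of exonic sequence. Both peaks of a pair had a fold enrichment, the ratio of immunoprecipitated (IP) over input signal at the peak, of 30 or more. These were 12.9% of the 3421 overlapping pairs in the series. They belonged to 399 genes and lay at 386 separate places of the genome when peaks that overlap on either strand were joined. Because the pairs were chosen by their fold enrichments, those values are a description of the set and carry no test.

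FaDu is a human squamous carcinoma line of the hypopharynx. The control cells expressed a non-targeting shRNA (shNC) and the depleted cells an shRNA against NAT10 (shNAT10), both from stable lentiviral vectors under puromycin selection. In acRIP-seq, fragmented RNA is pulled down with an antibody against ac4C and sequenced beside the input RNA. There was 1 IP and 1 input library in each condition, 4 libraries altogether. Values therefore have no replicate and no test between conditions was run, and each difference is one between single libraries. The depth of the libraries is unknown, since the lists hold peaks and not reads. The labels do not say which shRNA sequence was used. Of 10 genes typical of squamous or other epithelium, 4 had a peak in shNC (TP63, CDH1, SFN and DSP) and 3 in shNAT10 (TP63, CDH1 and SFN), and none was among the 442 pairs. The other 6, KRT5, KRT6A, KRT14, KRT17, EPCAM and PKP1, had no peak in either list under these symbols. The lists hold no expression values, so neither these levels nor the depletion of NAT10 could be checked here.

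NAT10 is the acetyltransferase that places ac4C on RNA, with long-known sites on ribosomal RNA and transfer RNA and reported sites on messenger RNA. On messenger RNA the mark has been linked to stability and to translation. Cytidine-rich repeats with C at regular steps, written CXXCXXCXXCXX with X for any base, have been described at such sites. Antibody enrichment finds fragments and not single bases, so a peak marks a stretch of RNA in which the antibody found its target.

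Of the 399 genes, 179 had a symbol in the deposited tables and 182 were named by position, where at least 90% of the exonic peak sequence of an identifier lay in a single RefSeq gene. Among 2240 identifiers that had both, this gave the deposited symbol in 95.8%. A further 38 genes stay without a name and are given by identifier. Coordinates are GRCh38, counted from 1, and those of a pair are of its shNC peak.

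The bases of most peaks were not at hand, but 10 of the genes had at least 30 bases of a shNC peak in a RefSeq window around a gene start (GRCh38.p14). The stretches below are RNA-sense sequence, 5′ to 3′, with matches to CXXCXXCXXCXX in capitals. They come from shNC peaks, some with and some without this repeat, and need not lie in the shNAT10 peak of the pair. The first is from TMEM160, among the strongest pairs (chr19:47048601-47048630, minus strand). The second is the start of the readable part of LOC105372442, a long noncoding gene with 95.3 in shNC and 111 in shNAT10 (chr19:50963322-50963351, plus strand), and the third is from KRT7 (chr12:52247658-52247687, plus strand). TMA7 is shown because its peak began at the first base of the gene (chr3:48440257-48440286, plus strand), which few pairs did. The stretches of ADIRF (chr10:86968487-86968516, plus strand) and of its antisense partner ADIRF-AS1 (chr10:86970265-86970294, minus strand) are those that held a match. The last is the mature hsa-miR-1244 with its seed in capitals (chr2:231713368-231713393, plus strand), whose hairpin lay whole inside both peaks of PTMA.
TMEM160: ggccgtagtgcgaatcatgggaggcggctg
LOC105372442: cccaggatgtggcagctggtggtgttggct
KRT7: ggctggagccccattcaatcagtcaacgat
TMA7: gtttccggtggcagggtctggggaagcggc
ADIRF: gggcaggatccaacgtcgCTCCAGCTGCTC
ADIRF-AS1: gggttgccCGCCTCCCTCCAGCCCCACCAG
hsa-miR-1244: aAGUAGUUgguuuguaugagaugguu

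No match was found in the 178 readable bases of LOC105372442, the 113 of TMA7 or the 56 of TMEM160. The 212 readable bases of ADIRF-AS1 held 7 matches, most but not all of them overlapping another. For scale, 62.7% of 35116 RefSeq windows held a match in their last 178 bases, and 14.2% in their last 30. The shNAT10 peak of the pair covered all of these bases in LOC105372442 and TMA7, 27 of 56 in TMEM160 and 0 of 212 in ADIRF-AS1. In ADIRF it covered 17 of the 76 bases read around the stretch shown. A match is a description of letters and not a site of acetylation.

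The strongest pairs came from genes of unlike function. RPP25, a protein subunit of RNase P and RNase MRP, had a fold enrichment of 297 in shNC and 318 in shNAT10 (chr15:74955312-74955761) and was the strongest by the lower value of the pair. An unnamed gene of chromosome 8 (ENSG00000164825, chr8:6870664-6877962) had 342 in shNC and 210 in shNAT10. TMEM160, which encodes a transmembrane protein, had 220 and 174 (chr19:47045936-47048630). All 3 were far above the limit in both libraries.

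ENSG00000253626 on chromosome 10 had a fold enrichment of 199 in shNC and 143 in shNAT10. CALB2, which encodes the calcium-binding protein calretinin, had 126 in shNC and 156 in shNAT10. CXXC1, a CpG-binding protein of a histone methyltransferase complex, had 121 and 153. These last 2 and RPP25 were the pairs among the strongest 10 that were higher in shNAT10.

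KRT19, a keratin of simple epithelia, had fold enrichments of 159 in shNC and 118 in shNAT10 over a peak of 1049 nt. KIFC2, a kinesin, had 182 and 110. GAS5, a noncoding host gene of small nucleolar RNAs, had 109 in both lists and was the single member with equal values. ID1, an inhibitor of DNA-binding helix-loop-helix factors, had the lowest ratio of the 10, with 263 in shNC and 106 in shNAT10. In all, 12 pairs had a fold enrichment of 100 or more in both lists. RPP25, TMEM160, CXXC1 and KIFC2 were named by position.

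**Figure D1:**
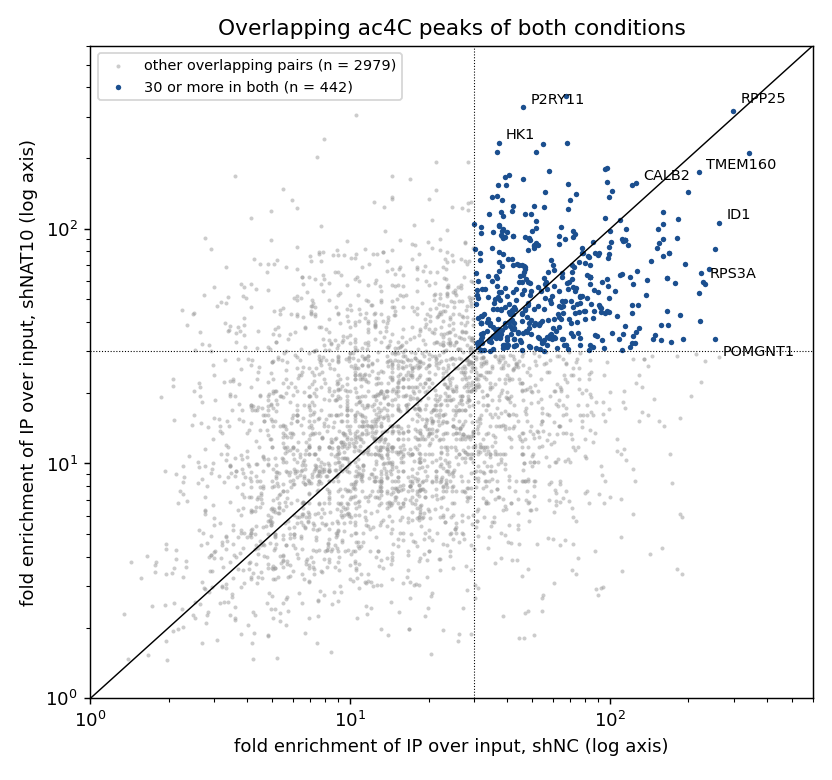
Fold enrichment of IP over input in shNC (x axis) and in shNAT10 (y axis), both on log axes, for the 442 members (blue) and the 2979 other overlapping pairs (grey). Dotted lines mark the limit of 30 and the diagonal marks equal values; RPP25 lies near the diagonal, P2RY11 and HK1 above it and POMGNT1 below it.

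The median fold enrichment of the members was 55.1 in shNC (lower and upper quartile 40.1 and 83.8) and 51.4 in shNAT10 (37.7 and 78.4). Over all overlapping pairs it was 16.2 and 15.5. In the shNC list 18.2% of 6403 peaks reached 30, and in the shNAT10 list 17.9% of 6417. The members had very small p-values in the deposited lists, the largest being 9.8e-10 in shNC and 2.9e-10 in shNAT10.

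At the limit the set was cut through a continuous range. Just inside lay QPRT, an enzyme of NAD synthesis (30 in shNC and 105 in shNAT10), ATP13A1, a transport ATPase of the endoplasmic reticulum (55.4 and 30), and DCTN1, a dynactin subunit (34.6 and 30). Just outside lay TIMM13, of mitochondrial protein import (29.9 and 32.9), SET, a histone chaperone (31.8 and 29.9), and TXNL4A, a spliceosome protein (56.6 and 29.9). Apart from SET, all of these were named by position.

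The ratio of the shNAT10 to the shNC fold enrichment had a median of 0.90 among the members (quartiles 0.609 and 1.33) and 0.94 over all overlapping pairs (0.492 and 1.81). The value was lower in shNAT10 in 259 of the 442 pairs (58.6%), higher in 182 and equal in 1. Over all pairs, 52.6% were lower. The shNAT10 value was at least 2 times the shNC value in 50 members (11.3%), against 22.3% of all overlapping pairs, and at most 0.5 times in 65 members (14.7%), against 25.5%. Since both values had to reach 30, the choice of members itself keeps their ratios nearer to 1, and nothing is read from these counts.

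The 3 highest and the 3 lowest ratios are given next. Since no value could be under 30, a wide ratio entails a high value in one library. P2RY11, a purinergic receptor gene, had 46.3 in shNC and 329 in shNAT10 (chr19:10114806-10115312), the highest ratio at 7.11. HK1, the gene of hexokinase 1, had 37.2 and 232 (chr10:69401643-69401852). ENSG00000240801 on chromosome 11 had 36.8 in shNC and 212 in shNAT10, and IGF2, which encodes a growth factor and has the same shNAT10 value of 212, lies at the same locus with 51.8 in shNC. At the other end, POMGNT1, a glycosyltransferase of O-mannosyl glycans, had 253 in shNC and 33.8 in shNAT10 (chr1:46188712-46189161). LAMA5, a laminin chain of basement membranes, had 191 and 33.8, and TMC6, a transmembrane channel-like gene named by position, had 221 and 40.6. With a single library on each side, the spread of such values between cultures is unknown.

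Most strong peaks of each list overlapped some peak of the other list by at least 1 base. Of the 1165 shNC peaks of 30 or more, 893 (76.7%, 95% Wilson interval 74.1 to 79.0) overlapped a shNAT10 peak of the same gene at any strength, against 51.4% of all shNC peaks. Of the 1146 shNAT10 peaks of 30 or more, 843 (73.6%, 70.9 to 76.0) overlapped a shNC peak, against 51.3% of all shNAT10 peaks. Overlap with a strong peak of the other list was less common: 430 shNC peaks (36.9%) and 425 shNAT10 peaks (37.1%) were part of a member. These intervals cover the counting of peaks and not the variation between cultures. The part of peak length in these shares was not tested.

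Member peaks were long. The median exonic length in shNC was 391 nt, against 270 nt over all overlapping pairs. In shNAT10 it was 385.5 nt, against 269 nt. The longest 3 were in CTSB, which encodes the lysosomal protease cathepsin B (1229 nt, 101 in shNC and 87.4 in shNAT10), in H19, an imprinted noncoding gene (1220 nt, 73.6 and 141), and in LY6E, a membrane-anchored lymphocyte antigen family gene named by position (1170 nt, 60.9 and 56.9). More than 1 exonic block was joined by the peak in 33.5% of the members in shNC and 32.6% in shNAT10, near the 29.3% and 28.6% of all pairs.

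The peaks of a pair mostly covered the same bases. The bases they shared were a median of 80.2% of the bases in either peak, against 66.8% over all pairs. In 68 pairs (15.4%) the blocks were identical, against 9.73%. The members' peaks are also longer, and the part of length in the shared percentage was not tested. The genomic start was the same in 44.8% of the members, against 29.1% of all pairs, and the end in 33.0%, against 26.5%. Starts 28 to 32 nt apart were found in 84 members and 746 of all 3421 pairs (21.8%), and ends that far apart in 26.5% of the members and 25.1% of all pairs, so steps of this size were about as common in both. Under 10% of the bases were shared in 8 members (1.81%), in 5 of them a single base, against 4.47% of all pairs. The least overlap was in a second KRT19 pair, in RAPGEF3, an exchange factor for RAP GTPases named by position, and in ENSG00000167766. In each of these, a peak of one list that already had a partner touched the edge of another, so a pair is not always the same stretch of RNA.

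**Figure D2:**
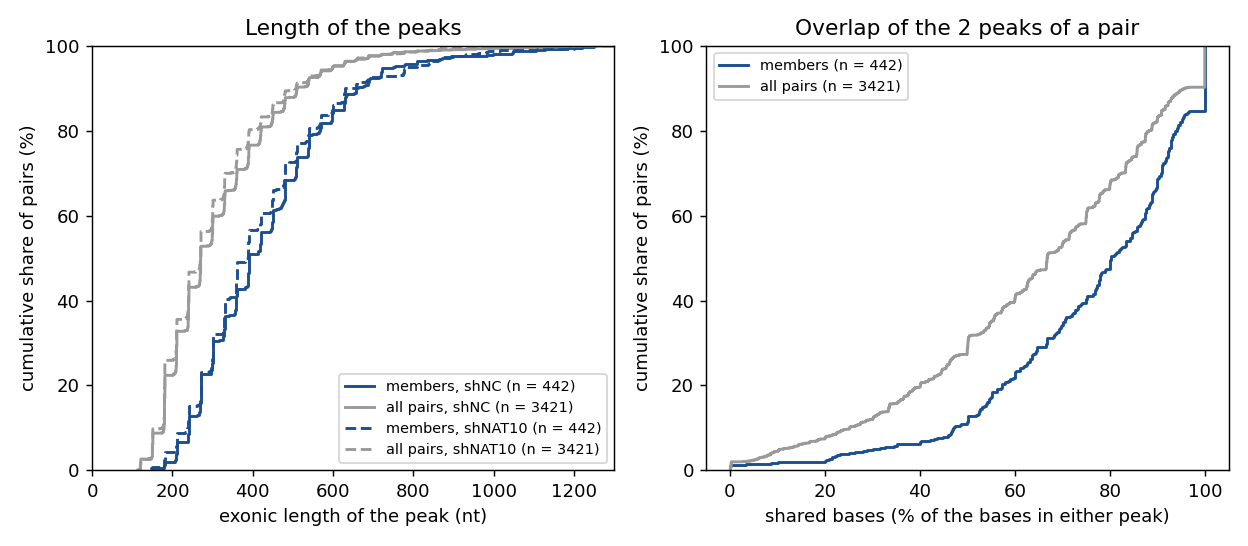
Cumulative share of pairs (y axis, %) by exonic length of the peak in nt (left) and by the shared bases as % of the bases in either peak (right), for members (blue) and all overlapping pairs (grey), with shNC solid and shNAT10 dashed. The members' curves lie to the right in both panels, with a median length of 391 nt in shNC and a median overlap of 80.2%.

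Along the gene, member peaks lay near the 3′ end, as did those of all pairs. For 397 members the RefSeq gene gave a place, counted along the genome with introns included from 0 at the start to 100 at the end, and the median was 93.5, against 94.5 for 3064 pairs in all. Places from 80 upward held 74.8% of the members and 76.2% of all pairs, and places up to 20 held 2.27% and 2.71%. The distance to the end was shorter in members: the 3′ edge of the shNC peak was a median of 60 nt from the gene end in members and 210 nt in all pairs. It was within 100 nt of the end or past it in 54.4% against 38.6%. In 8.56% of the members and 4.90% of all pairs it was at or past the end. A distance of 25 to 35 nt was found in 25.2% of the members and 13.6% of all pairs. The members' peaks are also longer, and the part of length in this distance was not tested.

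**Figure D3:**
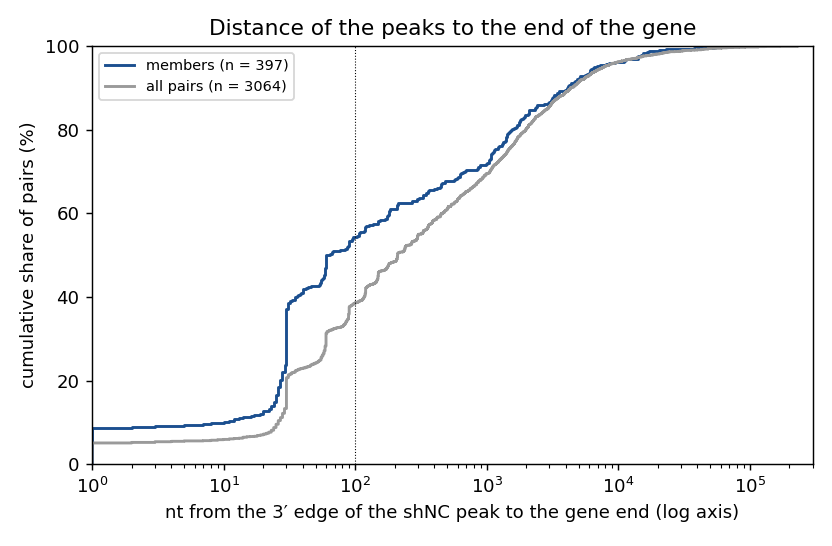
Cumulative share of pairs (y axis, %) by the distance in nt from the 3′ edge of the shNC peak to the end of the RefSeq gene (x axis, log scale, distances under 1 nt drawn at 1), for 397 members (blue) and 3064 overlapping pairs (grey). The dotted line marks 100 nt, up to which 54.4% of the members and 38.6% of all pairs lay, peaks past the gene end included. The step near 30 nt is larger in the members.

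A region class and the listed positions of CXXCXXCXXCXX were at hand for 130 members that overlap a row of the deposited table of differential peaks. This subset was selected by the authors on a difference between the libraries and does not stand for all members. Of these 130, 67 (51.5%) were classed as 3′-UTR, 39 as exon and 24 as coding sequence. For comparison, 627, 340 and 259 were so classed among the 1231 overlapping pairs that overlap a row of that table. A listed position of the repeat lay in the shNC blocks of 98 members (75.4%) and of 63.9% of the 1231 pairs. Per 100 nt of these blocks there were 0.552 positions in members and 0.504 in the 1231 pairs. H19, given above, had 14 positions, ISYNA1, which encodes an enzyme of inositol synthesis (139 in shNC and 60.2 in shNAT10), had 12 and PABPN1, a poly(A)-binding protein (30.2 and 82), had 8, whereas PABPC1, the cytoplasmic poly(A)-binding protein (239 and 67.4), and HK1 had 0. ISYNA1, PABPN1 and PABPC1 were picked after their values were seen.

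Keratins, the intermediate filament proteins of epithelial cells, are part of the cell's structural scaffold. The keratins KRT5, KRT6A, KRT14 and KRT17 had no peak under their symbols in either list. All 6 named keratin genes with an overlapping pair had a member, in 12 pairs, which is 1.66% of the 361 named member genes against 0.235% of the 2558 named genes with an overlapping pair. KRT13, of stratified epithelia, had 3 pairs with 168, 160 and 157 in shNC and 78.7, 90.2 and 33.5 in shNAT10, each lower in shNAT10. KRT7, of simple epithelia, had 3 pairs with 72.5, 95.2 and 87.3 in shNC and 68.8, 179 and 79 in shNAT10, so its middle peak was higher in shNAT10 while the outer ones were slightly lower. KRT18 had 40.1 and 34.1 in shNC and 31.4 and 115 in shNAT10. Its partner KRT8 had 65.5 and 46.7, and KRT15, of the basal layer, 83.2 and 70.1. The 12 keratin pairs were lower in shNAT10 in 10 cases and higher in 2, with medians of 91.3 and 77.4. One of the lower ones is the second KRT19 pair, which shares a single base. Without it 9 of 11 were lower, against 58.6% of all members. These pairs come from only 6 genes, and their shNC median of 91.3 is above the 55.1 of all members. The values also chose the members, so nothing is read from this count. KRT8 and KRT15 were named by position, and related keratins have similar sequence, so reads could have been split among them.

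Genes with an RPL or RPS symbol, the series that names proteins of the cytoplasmic ribosome, formed the largest group. A member was found in 29 of 106 such genes with an overlapping pair (27.4%), and in 361 of all 2558 named genes. The 106 were taken by symbol alone, and how many of them are copies was not counted. They made up 8.03% of the named member genes against 4.14% of the named genes with an overlapping pair. In 33 pairs the medians were 57.4 in shNC and 48 in shNAT10, with 19 pairs lower and 14 higher in shNAT10. RPS3A had 227 in shNC and 59.2 in shNAT10, and RPL22L1, a paralog of RPL22, had 194 and 70.9. RPLP2, of the stalk, had 37.4 and 51.1 in shNC and 79.5 and 125 in shNAT10, and RPLP1, its partner, had 97.3 and 59.4 in shNC and 60.8 and 48 in shNAT10. RPS4X was almost equal at 65.1 and 64.5. Ribosomal protein genes have many processed copies in the genome, and 1 of the 29 genes, RPS28P7, is such a copy named by position (121 and 43.8), so reads may be shared between copies. The mitochondrial ribosome, by contrast, had members in 2 of 36 genes: MRPL53 (35 in shNC and 136 in shNAT10) and MRPL12 (52.7 and 34.4).

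**Figure D4:**
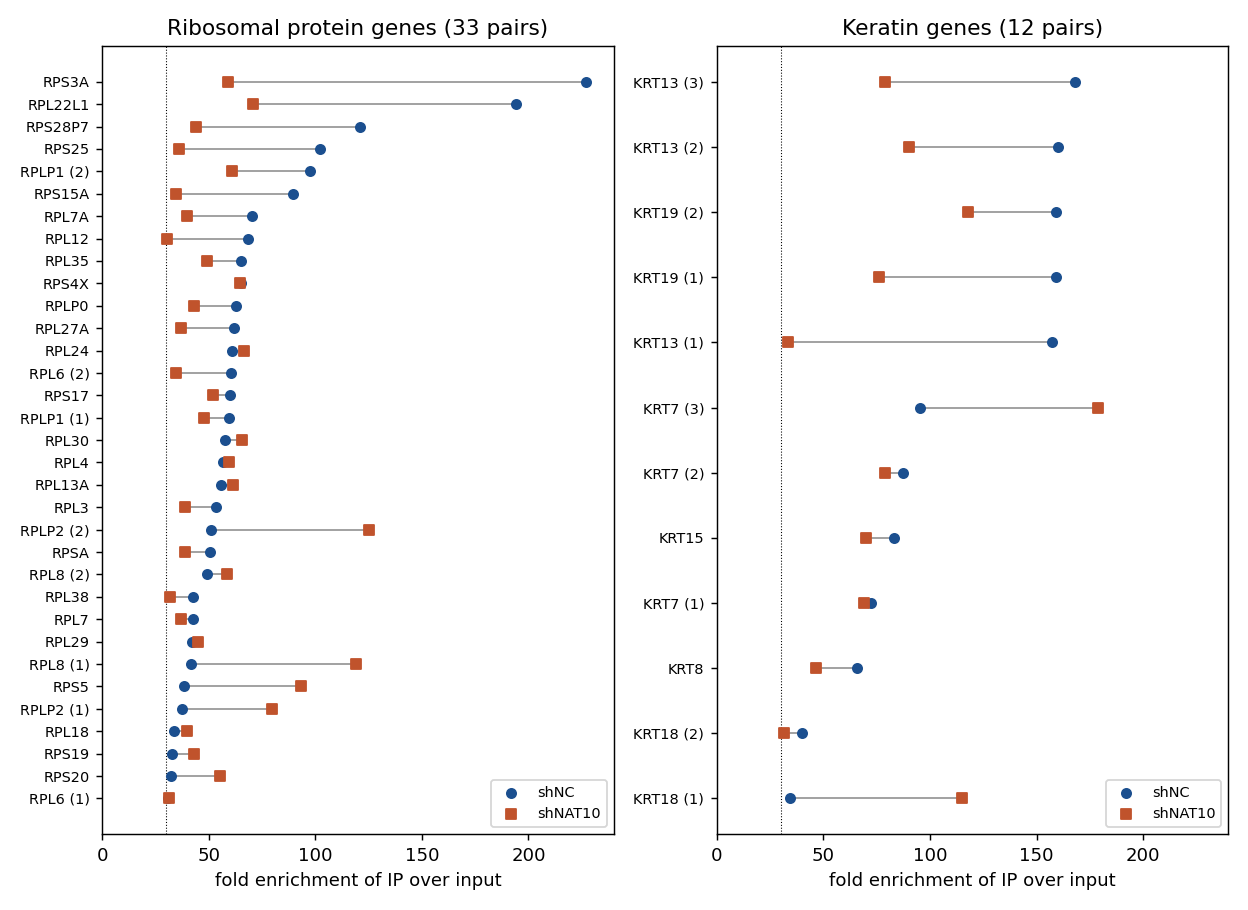
Fold enrichment of IP over input (x axis) in shNC (blue circles) and shNAT10 (orange squares) for the 33 member pairs of ribosomal protein genes (left) and the 12 of keratin genes (right), 1 row per pair; numbers in brackets tell apart pairs of the same gene. The dotted line marks 30. In 10 of the keratin rows the square lies left of its circle, while the ribosomal pairs run both ways.

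For scale in the groups that follow, 14.1% of all named genes with an overlapping pair had a member, and no group was tested against this share. Translation factors had 3 members of 35 genes with an overlapping pair: EIF4EBP1, a repressor of cap-dependent initiation, with 78.8 and 78.6, EEF1A1, an elongation factor, with 43.7 and 70.6, and EIF2B5 with 38 and 35.5. Splicing and RNA-binding genes had 4 of 57: SNRPE (67 in shNC and 90.6 in shNAT10), HNRNPM (54.8 and 40.6), HNRNPAB (40.8 and 39.9) and HNRNPA3 (31.8 and 95.5). PSMA4, a proteasome subunit, had 58.5 and 49.9 and was the single member of 31 proteasome and COP9 genes. Ubiquitin genes had 3 of 41, all ligases: RNF144B (231 and 58.3), TRIM56 (91.2 and 46.5) and RNF187 (71.5 and 65.5). EIF4EBP1, EIF2B5, PSMA4, RNF144B and RNF187 were named by position.

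Transcription regulators with a member included ID1, given above, which was 1 of 2 ID genes with an overlapping pair. SOX4, a developmental factor and 1 of 2 such SOX genes, had 65.6 in shNC and 43.9 in shNAT10. JUND, an AP-1 subunit and 1 of 5 such AP-1 and ATF genes, had 85.9 and 31.3. GATA3, a developmental factor with zinc fingers, had 177 and 58.7. Others were higher in shNAT10, such as RXRA, a nuclear receptor (38.3 and 133), and TAF15, an RNA-binding protein linked to transcription initiation (37.2 and 103). GATA3, RXRA and TAF15 were picked after their values were seen, and RXRA was named by position. Chromatin regulators had members in 2 of 15 genes with an overlapping pair. They were HDAC1, a histone deacetylase named by position (55.9 and 50.7), and CBX6, a Polycomb protein (38 and 118). Genes with a ZNF-type symbol had 0 members of 18 with an overlapping pair, and homeobox, FOX and KLF or SP genes 0 of 3 each, small numbers that were not tested against the 14.1% over all named genes.

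Histone genes had members in 4 of 8 genes with an overlapping pair. H2AFZ, the H2A.Z variant, had 143 in shNC and 72.6 in shNAT10, and H1F0, a linker histone, had 74.9 and 35.8. H1-10, another linker histone named by position, had 64.7 and 102. H2AFX, whose product marks DNA breaks when phosphorylated, had 33.8 and 37.1 in shNC and 41.4 and 51.4 in shNAT10, where 2 near-identical rows in each list made 4 pairs of a single place. The direction was mixed among the 4 genes.

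Extracellular matrix and its receptors gave LAMA5, LAMB1 (63.5 in shNC and 46.8 in shNAT10), a laminin chain, and ITGB1, an integrin chain (93.2 and 59.2), the last 2 named by position. These were 3 of 9 such genes with an overlapping pair. All 4 pairs of the 3 genes were lower in shNAT10, against 58.6% of all members. The second LAMA5 pair shares its shNAT10 peak with the first. With 3 genes, and values that chose the members, nothing is read from this direction. Small GTPases and their regulators had members in 3 of 24 genes with an overlapping pair. They were RHOA, a regulator of actin (78 and 51.5), RAB13 (71.8 and 34.8) and RAB8A (38.3 and 69.3), the last 2 of vesicle transport. Cytoskeletal motors and tubulins had members in 5 of 10 genes. They were KIFC2, KIF3B (69.1 and 41.4), KIF22 (41.8 and 41), TUBA4A (40.7 and 170) and TUBA1B (42.6 and 31.7), where tubulin genes share much sequence. The kinesins were named by position.

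Among transporters, 8 of 46 solute carrier genes had a member. SLC48A1, a heme transporter, had a pair with 122 in shNC and 58.1 in shNAT10 and another with 39 and 31.9, and SLC7A5, a transporter of large amino acids, had 72 and 98. Of 31 ATPase genes 6 had a member, of which 4 encode subunits of the vacuolar proton pump: ATP6V0B (115 and 99.7), ATP6V1G1 (76 and 71.8), ATP6V0E2 (51.1 and 82.8) and ATP6V0A1 (41.3 and 43.1), the last 2 named by position. Transmembrane genes of the TMEM series had members in 3 of 27 genes: TMEM160, TMEM205 (73 and 54.5) and TMEM106C (124 and 32.5, by position). Signalling gave GDF15, a stress-induced secreted factor (121 in shNC and 47.5 in shNAT10), IL27RA, a cytokine receptor chain (39.4 and 38, by position), and CDK4, a cell cycle kinase (44.9 and 62.7, by position). Among genes with an overlapping pair, GDF15 was 1 of 3 TGF-beta and SMAD genes. IL27RA was 1 of 4 cytokine receptor and TNF family genes, and CDK4 was 1 of 13 cyclin and CDK genes. No member was found among 5 MAP kinase and DUSP genes, 4 ABC transporter genes, 4 cadherin and desmosome genes, 2 claudin genes and 1 WNT or FZD gene with an overlapping pair, and groups this small say nothing by having none.

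Long noncoding genes recognised by their symbol gave KRT7-AS (98.8 in shNC and 83.2 in shNAT10), ADIRF-AS1 (86.1 and 41.5), MIR497HG (48.7 and 90.4), MIF-AS1 (48.7 and 39.6) and HSH2D-AS1 (46.4 and 69.3), the last 2 by position. These were 5 of 34 such genes with an overlapping pair (14.7%), near the 14.1% of all named genes. By RefSeq class, 8 of 355 named member genes (2.25%) were long noncoding, near the 1.86% of the 2473 named genes with an overlapping pair. All 5 of the first lie opposite a gene on the other strand that also had a member. Of the genes named in the study only some were looked up, NAT10 and UBE2V1 among them, and none of those was a member. NAT10 itself had an overlapping pair with 6.91 in shNC and 12 in shNAT10, and UBE2V1, a ubiquitin-conjugating enzyme variant, had one with 16 and 9.3.

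Opposite strands concerned more members than these. In 51 members (11.5%) the peaks overlapped a member of another gene on the other strand, and in 16 (3.62%) one on the same strand. The same shares were not counted over all overlapping pairs, so nothing particular to the members is read from them. KRT13 and AC019349.1 on the other strand both had 168 in shNC and 78.7 in shNAT10. LY6K had 166 and 61.7, and AC108002.1 opposite to it 166 and 61.5. KIFC2, with 182 and 110, faced ENSG00000160973 with 153 and 99.9. Of 29 such combinations, 10 (34.5%) were within 10% of each other in both lists. Genes with several pairs, such as EXOC7 with ZACN and KRT13 with AC019349.1, count more than once in these. The sources used here do not say whether counting used the strand, so reads of such partners cannot be told apart. Without the 51 members 391 pairs of 353 genes were left.

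Repeated pairs came from 29 genes with more than 1 member. In UVSSA, S1PR5, FAM83H and PGP, all named by position, and in H2AFX, 2 overlapping rows in each list gave 4 pairs of a single place. S1PR5, a sphingosine phosphate receptor, had 83.8 in shNC and 62.5 in shNAT10 in all of them, FAM83H, a keratin-associated gene, 114 and 89.5, and UVSSA, of transcription-coupled repair, 31.8 and 39.7. Others had separate places. NQO1, a quinone reductase, had 90.5 and 98 in shNC and 79.1 and 74.8 in shNAT10, and COX4I1, a subunit of cytochrome c oxidase, had 39.9 and 57.9 in shNC and 51.9 and 176 in shNAT10. TIMP1, an inhibitor of metalloproteases named by position, had 55.4 and 83.8 in shNC and 33.5 and 58.3 in shNAT10.

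Member genes tended to have more peaks in the lists, counting the member peaks themselves and repeated rows of a single place. Exactly 1 peak in each list was found in 167 of the 399 genes (41.9%), against 54.6% of the 2795 genes with an overlapping pair. In the shNC list, 76 of the 399 had 3 or more peaks, against 224 of the 2795. A gene with more peaks also has more chances to hold a strong one, so the counts are not independent of the choice.

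Chromosome 8 held an unequal share of the set. It had 38 of the 442 members (8.60%) but 126 of the 3421 overlapping pairs (3.68%), so that 30.2% of its pairs were members. Counted by gene, it was 31 of 399 (7.77%) against 3.54% of 2795. Beyond 140 Mb, near the end of the long arm, lay 22 members (4.98%) of 17 genes, against 53 of all pairs (1.55%) of 37 genes. Among them PLEC, the gene of the cytolinker plectin, had 254 in shNC and 82.2 in shNAT10, VPS28, of endosomal sorting, 154 and 86.5, PUF60, a splicing factor, 73.2 and 94.8, and GPAA1, of GPI anchor attachment, 37 and 154. On chromosome 8, 27 of 38 members were lower in shNAT10 (71.1%), against 58.6% of all members. These count FAM83H 4 times and both strands at KIFC2 and at LY6K. By the strongest pair of each gene it was 21 of 31 genes (67.7%) against 58.9% of all 399. Without members facing another on the opposite strand it was 17 of 25 genes against 58.1%. The direction rests on the values that chose the members, so nothing is read from it. Chromosome 19 held 12.2% of the members and 11.6% of all pairs, and chromosome 1 held 9.50% of both. Others held less than their share, such as chromosome 5 with 1.81% against 3.57% and chromosome 2 with 3.39% against 5.09%. This count, and the genes named from it, were picked after the values were seen. PLEC, VPS28 and GPAA1 were named by position.

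**Figure D5:**
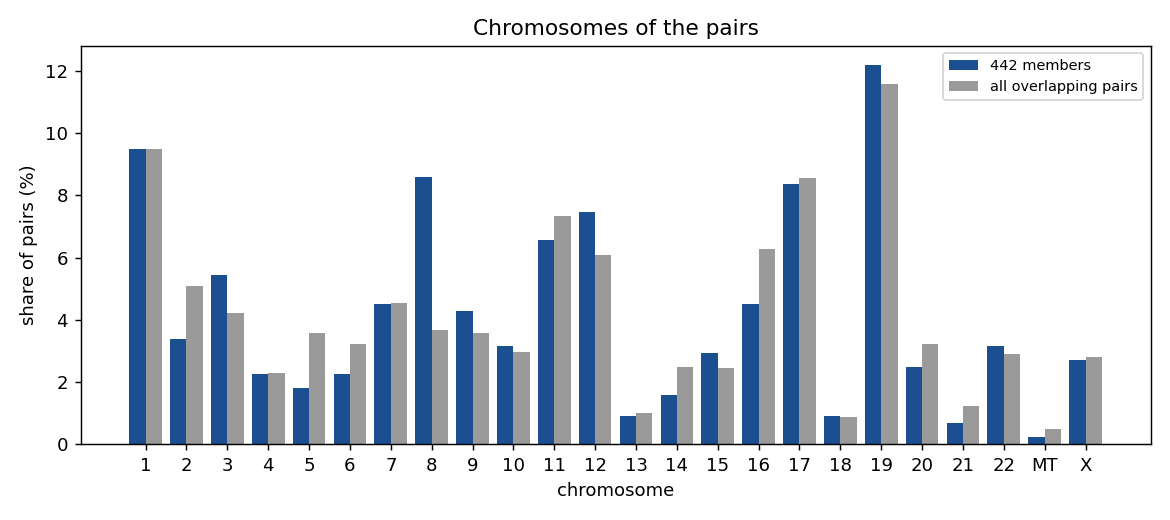
Share of the 442 members (blue bars) and of all 3421 overlapping pairs (grey bars) on each chromosome (y axis, %). Chromosome 8 holds 8.60% of the members and 3.68% of all pairs, and chromosomes 1, 17 and 19 hold similar shares of both.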

How the data were processed

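acRIP-seq of FaDu cells gave 1 IP and 1 input library for shNC and for shNAT10. The submitters' processing notes name cutadapt 2.5, HISAT2 2.1.0, HOMER 4.10.4 and featureCounts 1.6.3, with the human builds GRCh38 and hg38. The peak caller, the use of strand and the scaling are not given in the sources used here. The authors deposited a peak list for each condition, giving each peak a fold enrichment (a linear ratio), a p-value and a log10 FDR. The deposited table of differential peaks also holds the authors' fold changes with their p-values and FDR, which were not used. From it came symbols, region classes and the listed positions of the repeat, and 31 of 33 listed positions that lay in a RefSeq window held it.

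Rows were paired by gene identifier, strand and overlap of at least 1 base between exonic blocks. The pairing code was run on shifted copies of the shNC list in which each peak had its own name. Genes with several rows and pairs that touch at an edge were not simulated. The shNC list repeats 1 row. No test was run, and the main shares and medians are set beside those of all overlapping pairs. Members, gene groups and comparisons were chosen with earlier results of these data known. Named genes were the 10 strongest by the lower value, the 3 highest and 3 lowest ratios, and 3 pairs on each side of the limit. Also named were the 3 longest, the 3 least overlapping, genes with repeated pairs, groups of 5 or fewer genes, and some genes the study names. From larger groups and from repeated pairs, examples were picked after their values were seen. Groups followed symbols, also older ones. Bases came from RefSeq windows, with chromosome 8 and mitochondrial DNA left out, and from miRNAs. Python 3.11.15 with numpy 2.4.6, pandas 2.3.3 and matplotlib 3.10.9 was used.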

Additional observations from a re-analysis of the deposited data

How the results depend on the processing

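The numbers of pairs and genes, the shares of strong peaks with a partner, the lengths, blocks and overlap of the peaks, the 3′-UTR share and the share with the repeat were recomputed, each under those alternatives that bear on it: other limits of fold enrichment, a stricter overlap or FDR, 1 pair per gene, and, chosen after seeing the data, without members that overlap a member of the opposite strand. The ratios, the distances to the gene end, and the shares of groups and chromosomes were not recomputed in this way, apart from the counts given beside them. A limit of 20 gave 836 pairs of 771 genes and a limit of 40 gave 240 pairs of 222 genes, as a lower or higher limit must. The median exonic length was then 386.5 nt in shNC and 357 nt in shNAT10 at the limit of 20, and 421 nt in shNC at 40, where 42.1% of members joined more than 1 block in either list against 37.3%, and the cause was not tested. Where at least 50% of each peak had to be shared, 65.6% of the strong shNC peaks and 64.1% of the strong shNAT10 peaks overlapped a peak of the other list, and 401 member pairs were left. Within 100 nt around the midpoint of 85 single-block peaks, 47.1% held a listed repeat, a shorter window by construction. The other values recomputed stayed within 1.5 times a count or within the 95% interval of a share or median. Not run, since no genome was used here, were C and G plus C content, the repeat of 5 triplets, and region by a reference annotation. No paired analysis was possible because neither condition has a second IP or input library. Missing replicates and unknown depth limit every comparison.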

Other observations

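Strong peaks without any overlapping peak of the same gene in the other list were outside the set. There were 272 in shNC and 303 in shNAT10, with a median exonic length of 241 and 240 nt, and 87 and 100 of them lay in genes that had another peak in the other list. In shNC the strongest were in TIMM17A, of mitochondrial protein import (fold enrichment 229), and in ZNF32 (194) with ZNF32-AS1 on the other strand (193). In shNAT10 they were in SH3BP1 and the overlapping gene PDXP, both with 241, and ENSG00000169246 with 206. A single member lay on mitochondrial DNA, in the gene of cytochrome c oxidase subunit 3, named COX3 by position, with 34.7 in shNC and 32.9 in shNAT10.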
